A study of Mus musculus with 4 samples.

Results

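The Kruppel-like factors (Klf) are transcription factors that bind GC-rich and CACCC elements through a run of zinc fingers at the end of the protein. In mouse embryonic stem cells Klf2, Klf4 and Klf5 act with overlapping function to keep the cells self-renewing, and Klf4 is a target of the cytokine leukemia inhibitory factor (LIF) through STAT3. Other members are better known as repressors that recruit CtBP (Klf3) or Sin3 (Klf9, Klf10, Klf11 and Klf13) and as genes induced by growth factors or hormones. The genes described are Klf2, Klf3, Klf4, Klf5, Klf6, Klf7, Klf9, Klf10, Klf11 and Klf13, 10 of the 19938 genes measured. They were taken by name from the family, with earlier results of these data known. Each was read by 1 probe set annotated with that symbol alone.

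Expression was measured on Affymetrix MoGene 1.0 ST arrays in E14 mouse embryonic stem cells of an inbred 129 strain, on 2 arrays of Kdm2b knockdown cells and 2 of control cells. Cells of both groups were grown on gelatin with 15% serum and 1000 units/ml of LIF, transduced with lentiviral vectors at a multiplicity of infection of 10, and selected with puromycin at 2 µg/ml from 48 h after transduction. What the control vector carried, and whether the replicates came from separate cultures, is not given in the sources used here, so the spread behind each p-value may be purely technical. The series asks how Kdm2b, a subunit of a variant Polycomb repressive complex 1 that binds unmethylated CpG-rich DNA, keeps embryonic stem cells in their state. Kdm2b itself stood at log2 values of 9.20 and 9.19 in knockdown cells, against 10.74 and 10.64 in control cells, or 35.5% of control (adjusted p = 0.0039).

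The array medians over all probe sets were 8.55 and 8.53 in knockdown cells and 8.49 and 8.51 in control cells. Replicate arrays correlated at 0.997 in knockdown cells and 0.996 in control cells, and arrays of different groups at 0.992 to 0.994. The number of arrays limits the precision. All 8 stem cell markers examined, Pou5f1, Sox2 and Nanog among them, lay above the dim level (a log2 value of 8.52, the median of all probe sets), and 0 of the 8 passed limma's threshold (2 had an unadjusted p under 0.05). Over all genes, 12.2% passed the threshold and 29.8% had an unadjusted p under 0.05, so counts this small among 8 genes differ little from those shares. The mean log2 level of these markers was 13.40 to 13.42 in knockdown cells and 13.39 on both control arrays.

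After Kdm2b knockdown, 4 of the 10 Klf genes were lower and 0 were higher. Klf2 fell most, to 59.5% of its control level, followed by Klf10 at 62.2%, Klf11 at 66.9% and Klf6 at 75.0%. Klf4, which acts beside Klf2 in stem cells, had the opposite sign at 123% of control and missed the threshold. Klf5 lay at 99.0% of control. Across all genes, 7.19% were called lower, 5.00% higher and 12.2% either way, at an adjusted p under 0.05. The 10 were chosen with earlier results of these data known, so the counts beside these shares are descriptions only. The 7 other Klf genes measured are given further below. The median log2 fold change of the 10 was -0.20, against 0.03 over all genes. The values of the groups did not overlap in 8 of the 10 genes, nor in 58.8% of all genes. At limma's unadjusted p under 0.05 stood 6 of the 10 (1 higher, Klf4, and 5 lower) and 29.8% of all genes. In bulk RNA, fewer cells expressing a gene and less RNA per cell cannot be told apart.

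**Figure D1:**
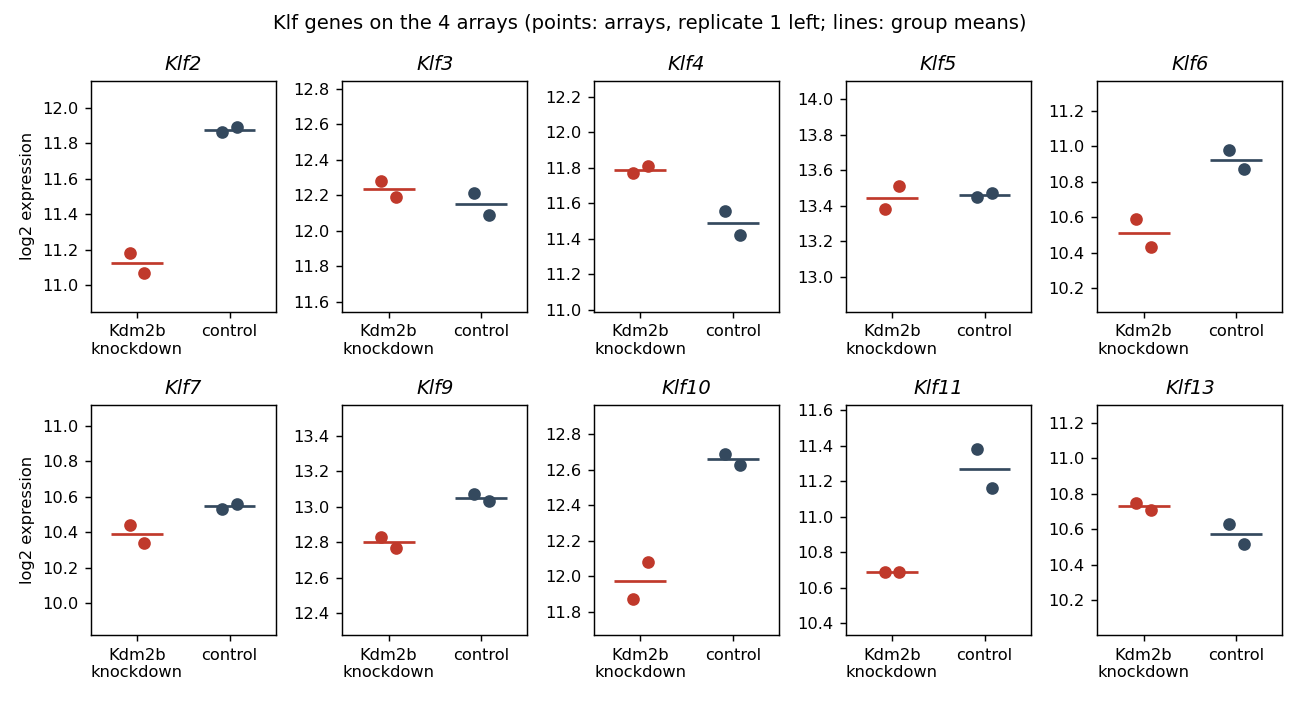
Log2 expression of each Klf gene (vertical axes, each spanning the same range of log2 units) on the 2 Kdm2b knockdown arrays (red, left) and the 2 control arrays (blue, right); points are arrays and lines are group means. Both knockdown points lie below both control points for Klf2, Klf6, Klf7, Klf9, Klf10 and Klf11, above them for Klf4 and Klf13, and overlap them for Klf3 and Klf5.

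Kdm2b has a zinc finger that reads unmethylated CpG, so the promoters of the called members found in the RefSeq table (GRCm38.p6) are shown with that of Klf4, which went the other way. Each window runs from 250 bases before the annotated start to 50 bases after it, 5′ to 3′ on the gene's strand, and capitals mark CpG dinucleotides. The windows are chr8:72318812-72319111 (plus strand) for Klf2, chr12:24651121-24651420 (plus strand) for Klf11, chr13:5861239-5861538 (plus strand) for Klf6 and chr4:55532426-55532725 (minus strand) for Klf4.
Klf2: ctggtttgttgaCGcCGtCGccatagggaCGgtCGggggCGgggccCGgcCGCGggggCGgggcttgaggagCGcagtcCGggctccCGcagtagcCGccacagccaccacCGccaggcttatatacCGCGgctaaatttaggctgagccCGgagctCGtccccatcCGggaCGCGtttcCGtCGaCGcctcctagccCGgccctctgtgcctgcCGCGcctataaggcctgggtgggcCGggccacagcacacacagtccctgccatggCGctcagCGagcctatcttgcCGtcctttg
Klf11: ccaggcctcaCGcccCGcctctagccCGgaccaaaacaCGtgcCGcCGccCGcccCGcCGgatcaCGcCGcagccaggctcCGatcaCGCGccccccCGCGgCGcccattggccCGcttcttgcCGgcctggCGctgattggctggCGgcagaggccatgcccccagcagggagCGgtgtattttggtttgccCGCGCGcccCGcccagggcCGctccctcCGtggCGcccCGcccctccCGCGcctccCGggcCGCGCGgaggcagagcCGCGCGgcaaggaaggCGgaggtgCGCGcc
Klf6: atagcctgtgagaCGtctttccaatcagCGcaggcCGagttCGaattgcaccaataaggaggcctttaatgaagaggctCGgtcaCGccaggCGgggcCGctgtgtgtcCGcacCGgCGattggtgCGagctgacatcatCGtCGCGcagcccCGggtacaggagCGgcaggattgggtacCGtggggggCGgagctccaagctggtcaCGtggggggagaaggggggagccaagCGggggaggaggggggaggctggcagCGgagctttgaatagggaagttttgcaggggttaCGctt
Klf4: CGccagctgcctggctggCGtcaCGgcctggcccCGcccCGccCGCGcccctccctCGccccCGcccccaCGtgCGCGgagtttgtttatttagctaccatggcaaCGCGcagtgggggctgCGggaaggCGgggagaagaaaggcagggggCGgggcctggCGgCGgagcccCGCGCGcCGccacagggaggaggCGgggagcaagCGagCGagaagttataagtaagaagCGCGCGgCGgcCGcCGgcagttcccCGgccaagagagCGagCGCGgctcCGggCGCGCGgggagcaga

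Of the 10 genes, 8 were matched in the promoter table. Klf5 and Klf10 were not, so Klf10, which fell, is not covered here. Klf2 held 32 CpG, Klf11 42, Klf6 23 and Klf4 40. The other matched members were Klf13 with 32 CpG, Klf3 with 29, Klf9 with 28 and Klf7 with 16. The median over all 32851 promoters of this length was 7. The ratio of CpG observed to that expected from the C and G content ran from 0.659 (Klf3) to 0.974 (Klf4). It was above 0.6 in all 8 and in 35.8% of all promoters. CpG counts above the median were found both in members that fell and in members that did not pass the threshold. Klf11 and Klf4 had the highest counts of the 8 and log2 fold changes of opposite sign. Binding of Kdm2b was not measured here.

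**Figure D2:**
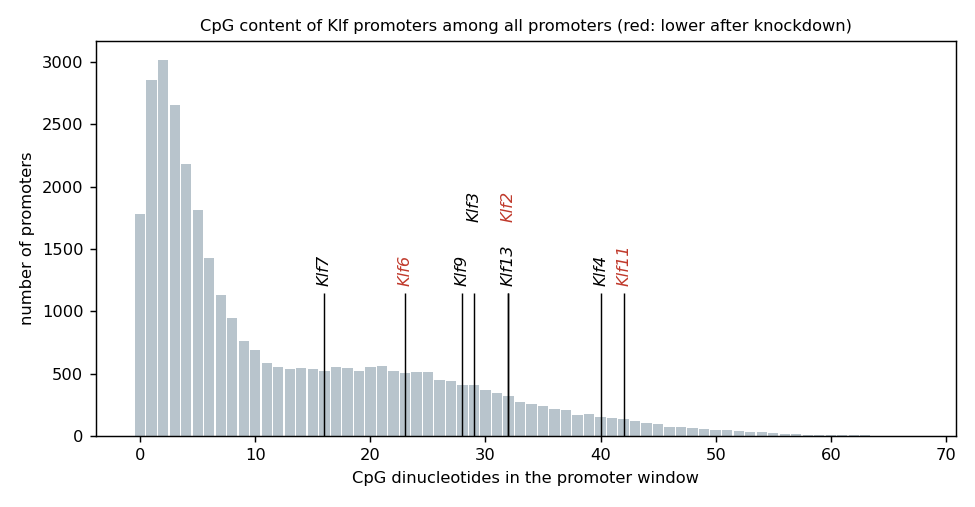
Number of promoters (vertical axis) by count of CpG dinucleotides in the window from 250 bases before to 50 after the start (horizontal axis), for all 32851 promoters of the RefSeq table. Vertical lines mark the 8 Klf promoters, with genes lower after knockdown in red; they lie at 16 to 42 CpG, and the median of all promoters is 7.

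The letters that zinc fingers of this family are known to bind were counted on both strands of the same windows. CCGCCC was present in 7 of the 8 Klf promoters, all except Klf9, and in 35.7% of all promoters. The 8 Klf windows ran from 58.33% G+C (Klf7) to 77.67% (Klf11), against a median of 52.67% over all promoters. The shares over all promoters were not matched for G+C. CCACCC was present in 4 of the 8 (Klf2, Klf3, Klf7 and Klf13) and in 31.5% of all promoters. The motifs can share bases with each other where they lie side by side. The Klf2 window also holds a match to the MEF2 consensus, a motif chosen after the sequence was seen, 118 bases before the start (chr8:72318944-72318953, plus strand), shown because MEF2 factors are known activators of Klf2.
MEF2 match in Klf2: CTAAATTTAG
Of all promoters, 3.19% held a match to this consensus on either strand, and none of the other 7 Klf windows did. A match describes the letters only.

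Among Klf2, Klf4 and Klf5, the members tied to self-renewal, Klf2 was the 1 gene past the threshold. Klf2 read 11.18 and 11.07 on the knockdown arrays, against 11.86 and 11.89 on the control arrays. Both knockdown values lay well under both controls, and the gap between groups exceeded the gaps between replicates, which were 0.11 in knockdown and 0.03 in control cells. The log2 fold change was -0.75 (SE 0.068, 95% interval -0.92 to -0.58, adjusted p = 0.00592).

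Klf4, one of the factors used to reprogram somatic cells, read 11.77 and 11.81 on the knockdown arrays, against 11.56 and 11.42 on the control arrays. Both knockdown values were the higher ones. Its log2 fold change was 0.30 (SE 0.0729, 95% interval 0.12 to 0.48) with an adjusted p of 0.0514, just outside the threshold. It passed the threshold after quantile normalization, with dim genes removed and with an intensity trend in the prior (adjusted p = 0.042, 0.0375 and 0.0396). Centring each array on its median gave 0.26, with an adjusted p of 0.0813.

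Klf5, needed for the self-renewal of stem cells and for the trophectoderm, read 13.38 and 13.51 on the knockdown arrays, against 13.45 and 13.47 on the control arrays. The control values fell between the knockdown values. Its change on the log2 scale was -0.015 (SE 0.0706, adjusted p = 0.908), and its 95% interval, -0.19 to 0.16, holds changes of modest size in either direction.

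Because these genes were read on the same arrays, the difference between a pair of them on each array shows whether they changed unequally. Klf4 minus Klf2 was 0.59 and 0.74 log2 units on the knockdown arrays, against -0.30 and -0.47 on the control arrays, a shift of 1.05. Klf5 minus Klf2 was 2.20 and 2.44 on the knockdown arrays, against 1.59 and 1.58 on the control arrays, a shift of 0.74. Klf4 minus Klf5 was -1.61 and -1.70 on the knockdown arrays, against -1.89 and -2.05 on the control arrays, a shift of 0.32. The groups did not overlap for any of these 3 pairs. They did not overlap in 58.8% of all single genes either, and no such share was computed for pairs of genes. Each shift is the difference between the log2 fold changes of its 2 genes, so it adds no independent measurement to the pairs. With 2 arrays a group the two-sided exact permutation test gave p = 0.333 for each, which is the smallest p this design allows (0.444 after Benjamini-Hochberg adjustment over the 4 pairs computed), so none can pass a threshold by that test. Probe sets differ in brightness, so the size of a difference on 1 array does not compare the transcripts' amounts.

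**Figure D3:**
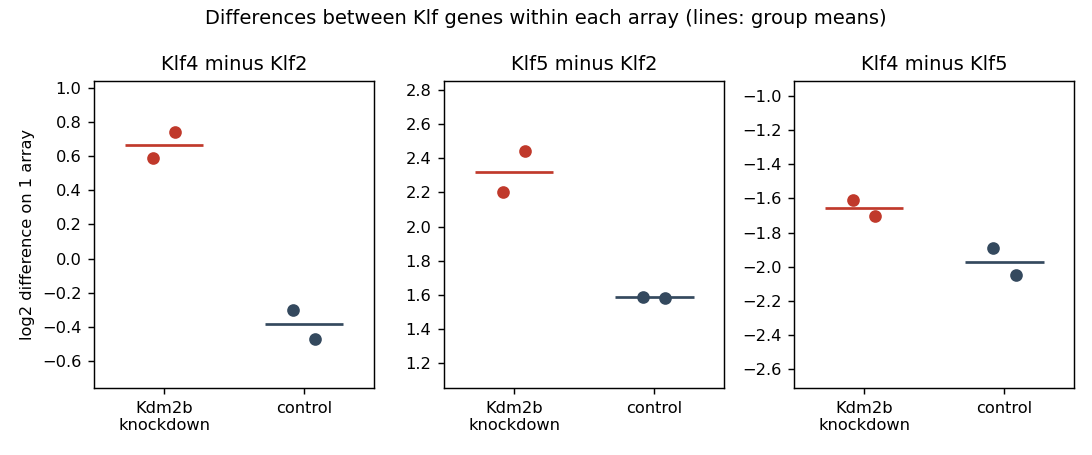
Difference in log2 expression between 2 Klf genes on the same array (vertical axes), for the 2 Kdm2b knockdown arrays (red, left) and the 2 control arrays (blue, right); lines are group means. In each of the 3 panels both knockdown points lie above both control points, with the widest separation for Klf4 minus Klf2.

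Klf10 and Klf11 are closely related repressors, first known as genes induced early by transforming growth factor beta (TGF-beta), and both fell. Klf10 read 11.87 and 12.08 on the knockdown arrays, against 12.69 and 12.63 on the control arrays. The knockdown replicates were 0.21 apart, the widest gap among the 10 genes in that group, yet both lay under the controls. The log2 difference between group means was -0.69 (SE 0.087, 95% interval -0.90 to -0.47, adjusted p = 0.0112).

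Klf11 read 10.69 on both knockdown arrays, against 11.38 and 11.16 on the control arrays. Here the controls were the more spread pair, 0.22 apart, and both exceeded the knockdown value. The log2 fold change was -0.58 (SE 0.0873, 95% interval -0.79 to -0.37, adjusted p = 0.0157). Klf11 minus Klf10 shifted by 0.11 log2 units between groups, with overlapping arrays (two-sided exact permutation p = 0.667, the same after adjustment over the 4 pairs). No difference of any size could pass by this test with 2 arrays a group.

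Klf9, a gene induced by glucocorticoids and thyroid hormone that binds the corepressor Sin3, read 12.83 and 12.77 on the knockdown arrays, against 13.07 and 13.03 on the control arrays. Both knockdown values lay below both controls. The log2 fold change of -0.25 (SE 0.0629, adjusted p = 0.0568) did not pass the threshold. It passed with arrays centred on their medians, with dim genes removed and with an intensity trend (adjusted p = 0.036, 0.0385 and 0.0211). It did not pass after quantile normalization (adjusted p = 0.0691), with the mean of probe sets (0.0558) or with a robust prior (0.0571). With the replicate number as a block the adjusted p was 0.1335, and limma's treat at a fold of 1.2 did not call it.

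Klf13, a Sin3-binding factor known from lymphocytes and the heart, read 10.75 and 10.71 on the knockdown arrays, against 10.63 and 10.52 on the control arrays. Its values were the higher ones in knockdown cells by a small margin. Its change on the log2 scale was 0.16 (SE 0.0684, adjusted p = 0.196) and did not pass the threshold.

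Klf3, which represses its targets through CtBP, read 12.28 and 12.19 on the knockdown arrays, against 12.21 and 12.09 on the control arrays. The groups overlapped. The log2 difference between group means was 0.09 (SE 0.0737, 95% interval -0.10 to 0.27, adjusted p = 0.486).

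Klf6, a broadly expressed member known as an early response gene, read 10.59 and 10.43 on the knockdown arrays, against 10.98 and 10.87 on the control arrays. Both knockdown values lay below both controls. It fell by 0.42 in log2 units (SE 0.0819, 95% interval -0.62 to -0.21, adjusted p = 0.0303).

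Klf7, its close relative with a role in neurons, read 10.44 and 10.34 on the knockdown arrays, against 10.53 and 10.56 on the control arrays. The knockdown values were the lower ones, but by less than in Klf6. The log2 fold change was -0.16 (SE 0.0666, 95% interval -0.32 to 0.01), with an adjusted p of 0.187 that did not pass the threshold.

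The calls rest on all 4 arrays. With any array left out, limma had 1 residual degree of freedom and called 0 of the 10 genes (and 0 of all genes in either direction), with 5 or 6 of the 10 at an unadjusted p under 0.05. Adjusted p-values of the 4 genes were then 0.196 to 0.284, and their log2 fold changes ran from -0.81 to -0.70 for Klf2, -0.79 to -0.58 for Klf10, -0.69 to -0.47 for Klf11 and -0.50 to -0.34 for Klf6. When the change was tested against a fold of 1.2 and not against 0, Klf2 was the 1 member still called.

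The rest of the family was examined with a list of other Klf genes and of the related Sp genes, whose zinc fingers bind similar GC-rich DNA. Of 15 measured, 1 was lower, 0 were higher and 14 did not pass the threshold, with a median log2 fold change of 0.09. Across all genes, 7.19% were called lower and 5.00% higher, so this count differs little from those shares. Klf15, known for its part in glucose and amino acid metabolism of liver and muscle, read 9.82 and 9.97 on the knockdown arrays, against 10.75 and 10.56 on the control arrays. It fell to 59.0% of control (log2 fold change -0.76, SE 0.0921, adjusted p = 0.0102), a size like that of Klf2. Klf16, close to Klf9 and Klf13, had a log2 fold change of 0.26 with an adjusted p of 0.0674, and 0.0478 with dim genes removed. It did not pass after quantile normalization (adjusted p = 0.0576), with centred arrays (0.0898) or with an intensity trend (0.0517). Klf16 is named after its values were seen.

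Over all 17 Klf genes measured, 5 were lower and 0 higher, with a median of -0.13, against 7.19% lower and 5.00% higher over all genes. These 17 include the 10 described above. The 7 other Klf genes alone had 1 lower and 0 higher, with a median of 0.05. Of the 8 Sp genes measured, 0 passed limma's threshold (2 had an unadjusted p under 0.05) and their median was 0.12. Klf1, Klf17, Sp5, Sp6, Sp7 and Sp8 lay below the dim level.

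**Figure D4:**
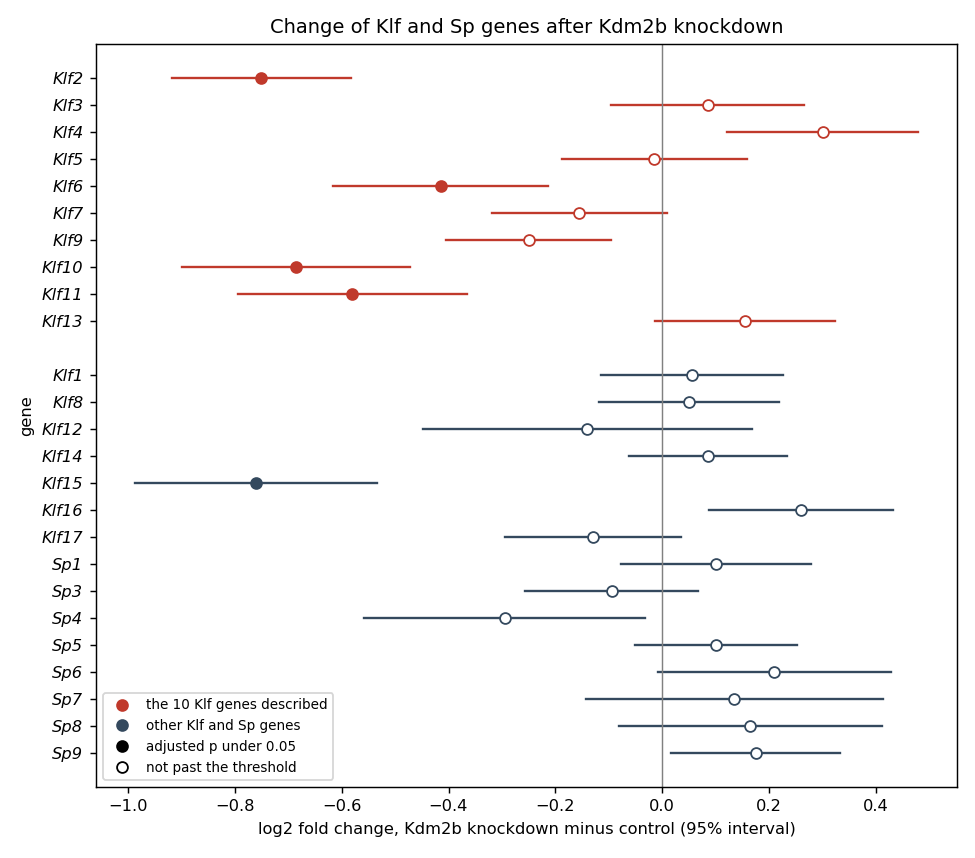
Log2 fold change of each gene (rows), Kdm2b knockdown minus control, with limma's 95% interval, for the 10 Klf genes described (red) and the other measured Klf and Sp genes (blue); filled points have an adjusted p under 0.05. The filled points, Klf2, Klf6, Klf10, Klf11 and Klf15, all lie to the left of 0.

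The signals and partners around the Klf factors were examined by list. Beside each count stand the shares over all genes, 7.19% called lower and 5.00% called higher. Of 7 genes of the LIF pathway that feeds Klf4, 1 was lower and 0 higher. That gene was Il6st, the receptor subunit gp130 shared by LIF and related cytokines, which read 11.62 and 11.67 on the knockdown arrays, against 12.31 and 12.18 on the control arrays (log2 fold change -0.60, SE 0.0718, adjusted p = 0.00998). Stat3, named after its values were seen, had a log2 fold change of -0.27 and an adjusted p of 0.11. Of 13 partners of Klf factors in stem cell transcription, 1 was lower, 0 higher and 12 neither, with a median of 0. Tcl1, a cofactor of the kinase Akt and a known target of the stem cell factors, fell by 0.37 log2 units (SE 0.0638, adjusted p = 0.0221).

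The kinase MEK5 and the MEF2 factors, which are known to activate Klf2 and Klf4 in endothelial cells, went both ways. Of 6 genes, 1 was higher, 2 were lower and 3 did not pass the threshold, with a median log2 fold change of 0.04. The kinase genes Map3k3 (-0.37) and Map2k5, which encodes MEK5 (-0.33), fell, with adjusted p-values of 0.0402 and 0.034. The other kinase gene of the list, Mapk7, named after its values were seen, had the opposite sign (0.18, adjusted p = 0.117). At limma's unadjusted p under 0.05, 3 of the 6 genes were higher and 2 lower. Mef2c rose by 0.36 (adjusted p = 0.025). Its mean log2 value of 7.31 lay below the dim level.

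Of 14 immediate early genes, the class induced by serum to which Klf6 and Klf10 also belong, 2 were higher, 0 lower and 12 neither, with a median of 0.12. Myc read 12.67 and 12.90 on the knockdown arrays, against 11.57 and 11.95 on the control arrays (log2 fold change 1.03, SE 0.142, adjusted p = 0.0136). Fosl1, a component of the factor AP-1, rose by 0.63 (adjusted p = 0.0161). Both had the opposite sign to Klf6 and Klf10. Of the 14 genes, 9 had a positive log2 fold change and 5 a negative one. Replicates lay far apart in some of them, such as Egr1 (1.05 on the knockdown arrays) and Atf3 (0.82 on the control arrays). A shared response to serum was not tested.

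Of 9 genes of the TGF-beta pathway measured, 1 was higher, 1 lower and 7 neither, with a median of 0.23. Positive log2 fold changes numbered 7 and negative ones 2. At limma's unadjusted p under 0.05, 4 were higher and 1 lower. Smad7, the inhibitory Smad that the pathway itself induces, rose by 0.63 (SE 0.0734, adjusted p = 0.00956), while the receptor gene Tgfbr1 fell by 0.38 (adjusted p = 0.0309). Klf10 and Klf11, which the same signal is known to induce, had the opposite sign to Smad7 and the same sign as Tgfbr1. The part of this signal in their changes was not tested.

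Of 6 ubiquitin ligases that act on Klf proteins, 1 was higher and 0 lower. Fbxw7, which targets Klf2 and Klf5 proteins for degradation, rose by 0.33 (SE 0.0748, adjusted p = 0.0449). With the mean of its probe sets it did not pass the threshold (0.23, adjusted p = 0.0768). Protein levels were not measured. Of 10 corepressors of Klf factors, 0 passed limma's threshold (2 had an unadjusted p under 0.05), and Fhl3, a partner of Klf3, had the widest log2 fold change among them at 0.29 (adjusted p = 0.0735). Sap30, a subunit of the Sin3 complex named after its values were seen, had a log2 fold change of 0.28 (adjusted p = 0.0534), and passed after quantile normalization, with dim genes removed and with an intensity trend (adjusted p = 0.0379, 0.0381 and 0.0466).

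**Figure D5:**
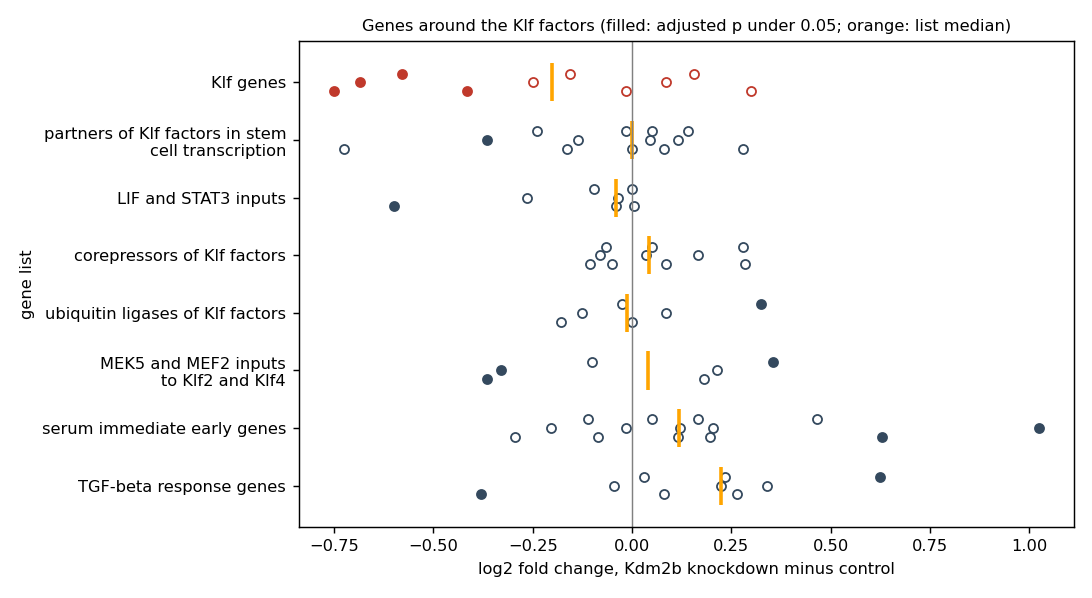
Log2 fold change, Kdm2b knockdown minus control (horizontal axis), of the 10 Klf genes (red) and of the genes of 7 lists around them (blue); filled points have an adjusted p under 0.05 and orange bars are list medians. The Klf genes have a median of -0.20, and the medians of the other lists run from -0.04 to 0.23.

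Markers of other cell types that such a culture could hold were counted against the 12.2% of all genes called either way. Of 11 markers of primitive and visceral endoderm, 3 were higher (Gata6, Sox17 and Dab2), 0 lower and 8 neither. Their median log2 fold change was 0.505, with 10 positive and 1 negative. At limma's unadjusted p under 0.05, 7 were higher and 0 lower, against 29.8% of all genes either way. Gata6 had a log2 fold change of 2.115 (adjusted p = 0.0103). Sox17 did not pass after quantile normalization (log2 fold change 0.48, adjusted p = 0.0582), and Dab2 had a log2 fold change of 1.12, or 0.65 with the mean of its probe sets. The mean log2 level of the 11 markers was 9.08 to 9.33 on the knockdown arrays and 8.55 to 8.76 on the control arrays. Of the 11, 3 (Sox17, Afp and Ttr) lay below the dim level. Of 8 trophectoderm markers 3 were higher, 1 lower and 4 neither, with a mean level of 9.21 to 9.24 on the knockdown arrays and 9.11 to 9.17 on the control arrays. Of 8 endothelial and blood markers 3 were higher, 1 lower and 4 neither (8.75 to 8.78 on the knockdown arrays and 8.60 to 8.68 on the control arrays). Among the genes called higher, Cdx2 of the trophectoderm markers and Kdr and Cdh5 of the endothelial and blood markers lay below the dim level. Of 9 fibroblast and feeder markers 1 was higher, 1 lower and 7 neither (8.08 to 8.13 on the knockdown arrays and 8.05 to 8.07 on the control arrays). Of 6 neural markers measured 1 was higher, 1 lower and 4 neither (9.18 to 9.21 on the knockdown arrays and 9.15 to 9.17 on the control arrays). Their part in the changes of the Klf genes was not tested.

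The genes whose pattern over the 4 arrays came closest to each of Klf2, Klf4 and Klf5 were found by the Euclidean distance between log2 values after each gene's own mean was removed. For Klf2 these were Syna, a syncytin of retroviral origin (distance 0.0374), Rlim, an X-linked ubiquitin ligase (0.0433), and Cpne9, a copine (0.0497). Their log2 fold changes were -0.73, -0.78 and -0.74, and all 3 were called lower. For Klf4 they were Wdr4, a subunit of a transfer RNA methyltransferase (0.0087), Abat, an enzyme that breaks down the transmitter GABA (0.0245), and C1qtnf12, a secreted protein (0.0296), with log2 fold changes of 0.31, 0.28 and 0.28, 0 of them past the threshold. For Klf5 they were Copb2, a subunit of the COPI coat (0.0087), Capza2, an actin capping protein (0.0141), and Dna2, a nuclease of DNA replication (0.0141), with log2 fold changes of -0.02, -0.03 and -0.015. The genes were picked by these same values, so their similar log2 fold changes and calls follow from the selection. These likenesses rest on 4 arrays and are descriptions only.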

How the data were processed

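The authors deposited log2 expression values per probe set; per the submitters' processing notes they came from Affymetrix Expression Console. The sources used here do not give its version, background step or summary method, the log2 scale was read from the values (3.12 to 14.74), and how arrays were scaled to each other remains unknown. Of 35557 probe sets, 21789 had 1 gene symbol, 1621 several and 12147 none listed in the platform annotation; per gene the probe set with the highest mean over the 4 arrays was kept. Groups came from the sample titles. Fold changes are knockdown minus control from limma 3.58.1 in R 4.3.3 (lmFit, eBayes, two-sided, no term but group, Benjamini-Hochberg over 19938 genes, threshold 0.05); SE is limma's moderated standard error (prior 3.9 degrees of freedom). The procedure was tested on simulated data. Members and the 8 gene lists were chosen with earlier results of these data known. From each list up to 4 called genes were named, or 1 where none was called; genes outside this rule are marked. Some listed genes are not analysed here. Promoters are RefSeq's. Alternatives were a replicate block, leaving out each array, quantile normalization, median centring, a dim filter, the mean of probe sets, a trend or robust prior, an adjusted p under 0.1 and limma's treat.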

Additional observations from a re-analysis of the deposited data

How the results depend on the processing

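Titles give both groups replicate numbers 1 and 2 without saying what they share, and the deviations of same-numbered arrays correlated at 0.0954. With the replicate number as a block, limma called 0 members lower, 0 other Klf or Sp genes lower and 0 genes higher or lower (5411 at an unadjusted p under 0.05), with the log2 fold changes unchanged at -0.75 (Klf2), -0.685 (Klf10), -0.58 (Klf11), -0.415 (Klf6) and -1.495 (Kdm2b) and adjusted p-values of 0.127 to 0.129. Leaving out each array in turn likewise gave 0 calls for members lower, other Klf or Sp genes lower, genes higher and genes lower (3495 to 4215 at an unadjusted p under 0.05), with log2 fold changes of -0.805 to -0.695 (Klf2), -0.79 to -0.58 (Klf10), -0.69 to -0.47 (Klf11), -0.495 to -0.335 (Klf6) and -1.545 to -1.445 (Kdm2b); these fits leave 1 residual degree of freedom. Klf5 ran from -0.08 to 0.05 and was positive without knockdown replicate 1 (0.05). Klf members higher numbered 1, Klf4, after quantile normalization (0.32, adjusted p = 0.042), with dim genes removed (0.30, 0.0375) and with an intensity trend (0.30, 0.0396), and 1 at an adjusted p under 0.1. Klf9 passed with centred arrays (-0.29, adjusted p = 0.036), dim genes removed (-0.25, 0.0385) and an intensity trend (-0.25, 0.0211). Other Klf and Sp genes higher numbered 1 (Klf16) with dim genes removed. Genes higher numbered 1920 and lower 2236 at an adjusted p under 0.1, and 97 and 185 with treat at a fold of 1.2, where 1 member was lower. With the mean of probe sets and the robust prior no member changed its call. Scaling moved the median of all genes from 0.03 to between -0.01 and 0.0075.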

Other observations

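Lefty1, an inhibitor of Nodal signalling and a known target of Klf factors in stem cells, differed more between replicates than between groups. It read 10.14 and 9.31 on the knockdown arrays, against 9.94 and 10.96 on the control arrays, and its log2 fold change of -0.73 (SE 0.387, adjusted p = 0.271) did not pass the threshold. The gene was chosen after its values were seen.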
